A study of Mus musculus with 175 samples.

Results

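The 8 genes described here, Tfrc, Tfr2, Steap3, Fth1, Ftl1, Ireb2, Aco1 and Hmox1, handle the uptake, storage and sensing of iron in the cell. They were chosen by symbol in the deposited gene annotation, which holds 49585 mouse features, of which 22262 had a read in a retained cell. All 8 were found, and all 8 had the 10 summed reads per pair of populations required for a ratio. Single progenitors were sorted from E14.5 fetal livers of a C57BL/6 by ICR cross that carried the Runx1 P1-GFP::P2-hCD4/+ reporter, spelled P2-GFP::P2-hCD4/+ in the genotype label. Megakaryocyte-erythroid progenitors (MEPs, CD34-) and common myeloid progenitors (CMPs, CD34+) were each split by hCD4, the reporter of the proximal Runx1 promoter P2. The paper states that only the CD41- CD150+ cells of each were sequenced, from lineage-negative, Sca1-, cKit+ progenitors. MEPs and CMPs here mean these gated cells. The 4 populations were P2- MEPs (56 cells retained), P2+ MEPs (47 cells), P2- CMPs (27 cells, labelled low) and P2+ CMPs (42 cells, labelled high). Livers of 2 litters were pooled before the sort, so each population was 1 sample, its cells were not replicates, and no p-value could be computed.

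Iron reaches erythroid cells bound to transferrin, which enters through the transferrin receptor Tfrc. In the endosome the iron is released and reduced by the ferrireductase Steap3. Iron that is not used for heme or iron-sulfur clusters is stored in ferritin, a shell of heavy (Fth1) and light (Ftl1) chains, and heme is broken down by heme oxygenase, of which Hmox1 is the inducible form. The iron regulatory proteins, encoded by Aco1 and Ireb2, bind RNA hairpins called iron-responsive elements when iron is low. Bound near the start of ferritin mRNA they block translation, and bound in the 3′ untranslated region (UTR) of Tfrc mRNA they protect it from decay. Tfr2 is a second transferrin receptor of liver and erythroid cells.

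These hairpins are the sequence feature that separates the members, so they are shown first. Untranslated regions of GENCODE transcripts (vM21, GRCm38) were searched on the transcript's own strand for the loop CAGTGN on a stem of 5 pairs, with an unpaired C below the stem and 5 further pairs of which at most 1 was allowed to be open. The capitals mark the loop, and the letters are DNA.

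Fth1, 5′ UTR: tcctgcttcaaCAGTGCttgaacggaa
Ftl1, 5′ UTR: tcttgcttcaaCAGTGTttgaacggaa
Tfrc, 3′ UTR, element 1: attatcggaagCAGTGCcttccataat
Tfrc, 3′ UTR, element 2: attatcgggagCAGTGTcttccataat
Tfrc, 3′ UTR, element 3: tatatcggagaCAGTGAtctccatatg
Tfrc, 3′ UTR, element 4: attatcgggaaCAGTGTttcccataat

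The Fth1 element lies at chr19:9982733-9982759 on the plus strand and the Ftl1 element at chr7:45459780-45459806 on the minus strand. They share 25 of 27 bases and differ by C3T and C17T, read from Fth1 to Ftl1 and counted from 1 at the 5′ end. The 4 Tfrc elements start at positions 32631220, 32631599, 32631664 and 32631711 of chromosome 16, in the last exon, on the plus strand. A match was found in the 5′ UTR of 6 of 20873 genes (0.0287%) and in the 3′ UTR of 10 of 20981 genes (0.0477%). The other 5 members gave none, which says only that these letters were not in the annotated windows. No readout of protein or of RNA decay was analysed here, so the values below are transcript levels alone.

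Each retained cell had between 295064 and 1540631 reads on mouse genes, with population medians from 520540 in the P2- MEPs to 804632 in the P2+ CMPs. Gene positions are those of GRCm38 (GENCODE vM21). Values are given as reads per 1000000 reads on mouse genes (CPM), pooled over the cells of a population with an exact 95% Poisson interval, or per cell. Intervals cover counting error only, because reads without molecular identifiers include PCR copies and because cells of 1 pool do not measure the spread between embryos. Cd34, the marker that divides MEPs from CMPs in the sort, stood at 0.0327 and 13.05 CPM in P2- and P2+ MEPs and at 274.3 and 541 CPM in P2- and P2+ CMPs. It does not check the P2 labels. Among the other sort genes, Kit was read in 56, 43, 27 and 40 cells of the same populations. Ly6a, which encodes Sca1, was read in 3 P2+ CMPs alone. Slamf1, which encodes CD150, was read in only 9 of the 56 P2- MEPs. Itga2b, which encodes CD41, was read in 35 of the 47 P2+ MEPs. The sort used surface protein, and these values are transcripts. One retained cell of the P2- CMPs carries a conflicting subtype label, and no result for the members changed its side of a 2-fold difference without it.

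In a comparison of P2+ with P2- MEPs, the receptors stood apart from the other members. Tfrc and Tfr2, 2 of the 8 genes, were 2-fold or more lower in the P2+ MEPs, against 12.5% of 15769 genes with enough reads, and none of the 8 was 2-fold or more higher, against 20.4% of genes. The median log2 ratio of the 8 was -0.33, and that of all genes was 0.06. In a comparison of P2+ with P2- CMPs, Tfrc and Steap3 were 2-fold or more lower (14.7% of 16107 genes) and Hmox1 was 2-fold or more higher (17.4% of genes). The median of the 8 was -0.31 in CMPs, and that of all genes was -0.0020.

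CMPs were also compared with MEPs at the same P2 status. In P2- cells, Tfrc, Steap3 and Hmox1 were 2-fold or more lower in CMPs, against 15.1% of 15631 genes, and none of the 8 was as much higher, against 25.8% of genes. For Hmox1 this rested on 1 P2- MEP with 75.1% of that population's reads, and without that cell the log2 ratio was 0.014. In P2+ cells, Tfrc and Steap3 were 2-fold or more lower in CMPs (16.5% of 16572 genes) and none was as much higher (23.2% of genes). The medians of the 8 were -0.71 and -0.08, beside 0.09 and 0.02 for all genes. These comparisons share populations with the previous ones and are not independent of them. Fth1, Ftl1, Ireb2 and Aco1 stayed within 2-fold in all 4 comparisons.

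**Figure D1:**
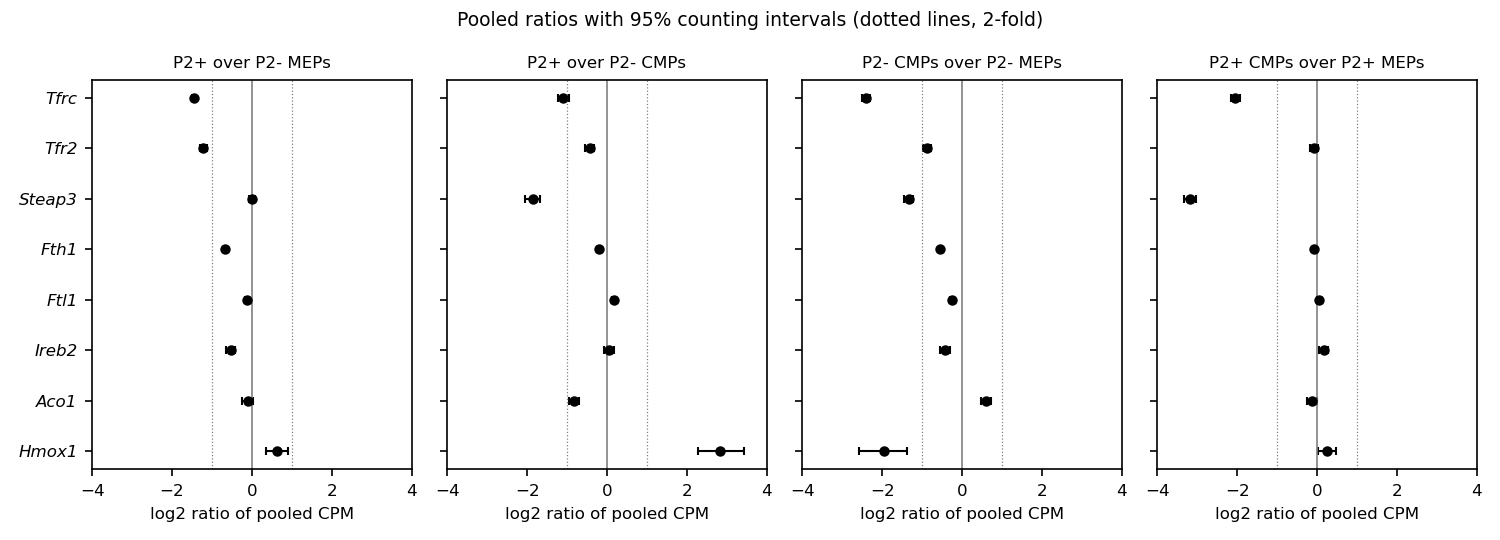
Log2 ratio of pooled CPM (horizontal axis) for each of the 8 genes (rows) in the 4 comparisons, with 95% counting intervals and dotted lines at 2-fold. Tfrc lies beyond the left dotted line in all 4 panels, Steap3 in 3 of them, and both ferritin genes lie between the dotted lines throughout.

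Between genes, levels can be compared only per length of transcript, here the shortest coding transcript of the consensus set. Heavy-chain ferritin was the most abundant member on that scale in every population, with 1785 CPM per kilobase in the P2- MEPs, 1114 in the P2+ MEPs, 1213 in the P2- CMPs and 1059 in the P2+ CMPs. Light-chain ferritin followed with 262.8 to 313.7 CPM per kilobase. The 3 uptake genes came next in MEPs, and their order differed between the populations. In P2- MEPs, Tfrc had 53.2, Tfr2 39.7 and Steap3 36.8 CPM per kilobase, and in P2+ MEPs Steap3 had 36.6, Tfrc 19.5 and Tfr2 17.0. In P2- CMPs, Tfr2 had 21.7, Steap3 14.6 and Tfrc 10.1 CPM per kilobase, with Aco1 at 13.2 above Tfrc. In P2+ CMPs, Tfr2 had 16.1 CPM per kilobase, and Tfrc at 4.72 and Steap3 at 4.02 lay below Aco1 and Ireb2. Ireb2 and Aco1 ranged from 6.32 to 13.2 CPM per kilobase over the populations, and Hmox1 from 0.973 to 6.93.

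Tfrc (chr16:32608920-32632794, plus strand), the receptor that carries transferrin-bound iron into the cell, had the widest fold range of pooled levels among the 8 genes. Per cell it ranged from 7.10 to 783 CPM in the P2- MEPs (median 259.8), and from 0 to 673 CPM in the P2+ MEPs (median 56.1). In CMPs it ranged from 0 to 239.4 CPM in the P2- cells (median 37.2) and from 0 to 119.6 CPM in the P2+ cells (median 0.628). Every P2- MEP had a Tfrc read, 13 of the 47 P2+ MEPs lay below the lowest P2- MEP, and no CMP of the P2- cells reached the P2- MEP median.

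Pooled, Tfrc stood at 259.9 CPM (254.3 to 265.7) in the P2- MEPs, 95.1 (91.7 to 98.6) in the P2+ MEPs, 49.3 (46.1 to 52.6) in the P2- CMPs and 23.1 (21.5 to 24.7) in the P2+ CMPs. No neighbours in that order had overlapping counting intervals. The log2 ratio of P2+ to P2- cells was -1.45 (-1.51 to -1.39) in MEPs and -1.09 (-1.23 to -0.96) in CMPs. From MEPs to CMPs it was -2.40 (-2.50 to -2.30) in P2- cells and -2.04 (-2.16 to -1.93) in P2+ cells. Leaving out the highest CMP for Tfrc moved the P2+ to P2- ratio in CMPs to -0.98, just under 2-fold.

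The difference lay both in how many cells had a read and in the level of those that did. After each cell was thinned to 100000 reads on mouse genes, so that depth was equal, Tfrc was read in 56 of the 56 P2- MEPs (95% Clopper-Pearson interval from 93.6%) and in 70.2% of the P2+ MEPs (55.1% to 82.7%). It was read in 66.7% of the P2- CMPs (46.0% to 83.5%) and 40.5% of the P2+ CMPs (25.6% to 56.7%). Among cells with a read, without thinning, the median level was 259.8 CPM in the P2- MEPs, 77.2 in the P2+ MEPs, 70.7 in the P2- CMPs and 46.8 in the P2+ CMPs.

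**Figure D2:**
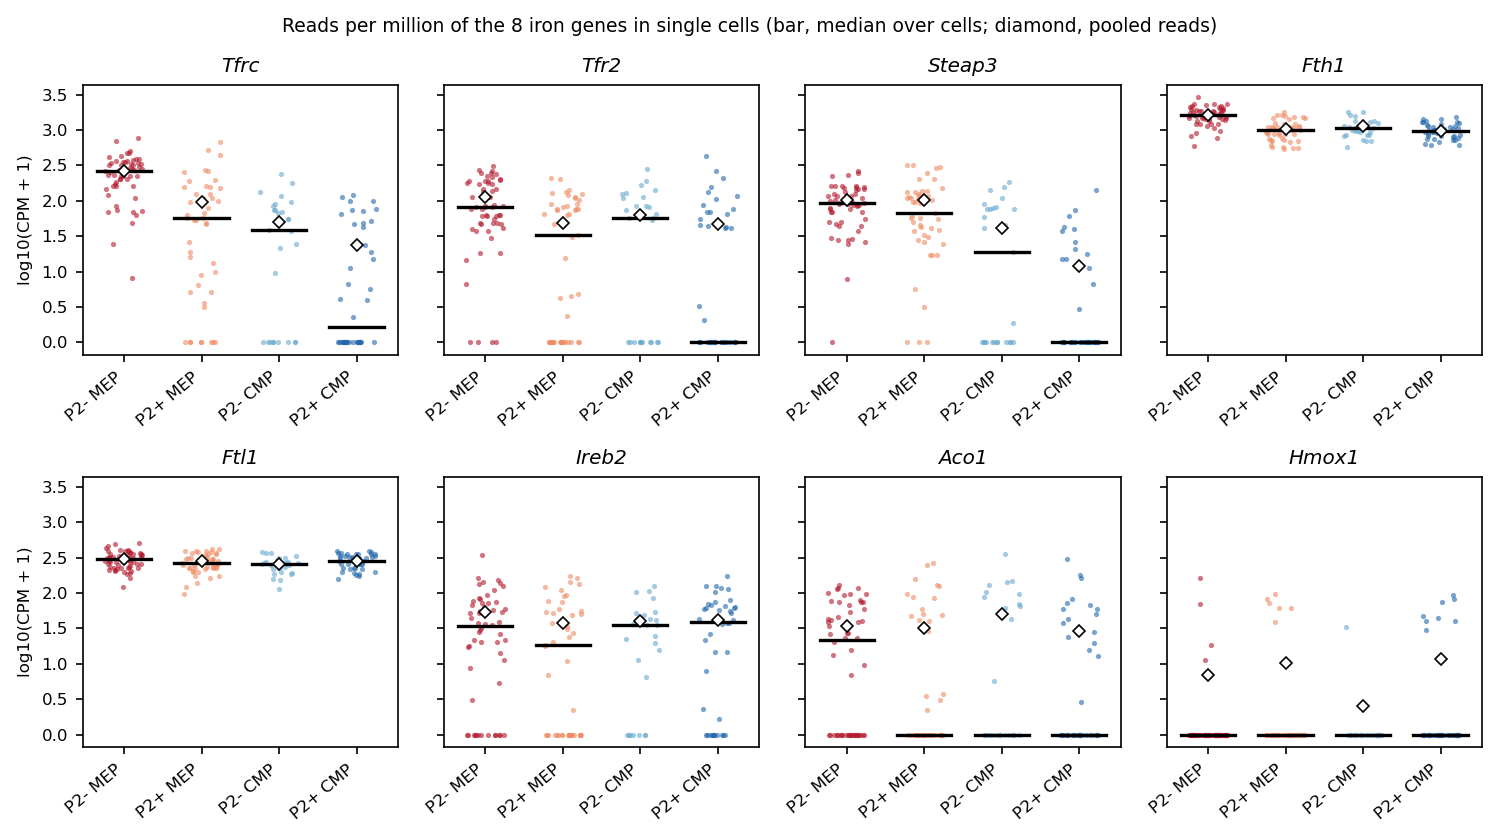
CPM per cell as log10(CPM + 1) (vertical axis) for the 8 genes in the 4 sorted populations, each point 1 cell, with the median over cells as a bar and the pooled value as a diamond. The Tfrc bars step down from P2- MEPs to P2+ CMPs, and the 2 ferritin genes have no cell at 0 in any population.

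Tfr2 (chr5:137569840-137587481, plus strand), the second transferrin receptor, followed Tfrc in MEPs but less so in CMPs. Its cells ranged from 0 to 311.2 CPM in the P2- MEPs (median 80.4), 0 to 207 in the P2+ MEPs (median 32.0), 0 to 285.07 in the P2- CMPs (median 55.9) and 0 to 428 in the P2+ CMPs (median 0). Pooled levels were 112.6 CPM (108.9 to 116.4), 48.3 (45.9 to 50.8), 61.6 (58.1 to 65.3) and 45.6 (43.5 to 47.9) in the same order. The counting intervals of the P2+ MEPs and P2+ CMPs overlapped, and those of the other populations did not. The log2 ratio of P2+ to P2- cells was -1.22 (-1.31 to -1.13) in MEPs and -0.43 (-0.54 to -0.32) in CMPs.

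The populations differed in the share of cells with a Tfr2 read and in the mean level of those cells, while the medians of those cells had another order. The share was 91.1% of the P2- MEPs, 57.4% of the P2+ MEPs, 59.3% of the P2- CMPs and 45.2% of the P2+ CMPs at 100000 reads per cell. Without thinning, cells with a read had means of 115.5 CPM in the P2- MEPs and 80.8 in the P2+ MEPs and of 113.3 and 101.8 in P2- and P2+ CMPs, and medians of 82.3, 76.8, 97.2 and 68.3 CPM in the same order. A single P2+ CMP held 19.9% of that population's Tfr2 reads.

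Steap3 (chr1:120190757-120272705, minus strand), which reduces the iron released in the endosome, did not follow the receptors in MEPs. Its cells ranged from 0 to 260.5 CPM in the P2- MEPs (median 92.5) and from 0 to 320.9 CPM in the P2+ MEPs (median 65.7). Pooled values were 101.3 CPM (97.7 to 104.9) and 100.8 (97.4 to 104.4), with a log2 ratio of -0.0059 (-0.078 to 0.066). By the medians over cells, a summary added after the data were seen, the log2 ratio was -0.49.

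In CMPs, Steap3 was low and differed by P2 status. Its cells ranged from 0 to 181 CPM in the P2- CMPs (median 18.1) and from 0 to 141.9 CPM in the P2+ CMPs (median 0), where 28 of 42 cells had no read. Pooled values were 40.2 CPM (37.3 to 43.2) and 11.1 (10.0 to 12.2), with a log2 ratio of -1.86 (-2.04 to -1.68). The largest ratio of any member between CMPs and MEPs was that of Steap3 in P2+ cells, 9.12-fold lower in CMPs, with a log2 ratio of -3.19 (-3.34 to -3.04). In P2- cells Steap3 was 2.52-fold lower in CMPs, with a log2 ratio of -1.33 (-1.45 to -1.22).

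The share of cells in which all 3 uptake genes were read was highest in P2- MEPs and lowest in P2+ CMPs. At 100000 reads per cell, reads of Tfrc, Tfr2 and Steap3 were all present in 48 of the 56 P2- MEPs (85.7%, 73.8% to 93.6%) and in 19 of the 47 P2+ MEPs (40.4%, 26.4% to 55.7%). They were all present in 9 of the 27 P2- CMPs (33.3%, 16.5% to 54.0%) and in 2 of the 42 P2+ CMPs (4.76%, 0.582% to 16.2%). The intervals of the P2+ MEPs and P2- CMPs overlapped. None of the 3 was read in 3 P2- CMPs and 10 P2+ CMPs, and every MEP had a read of at least 1 of them.

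**Figure D3:**
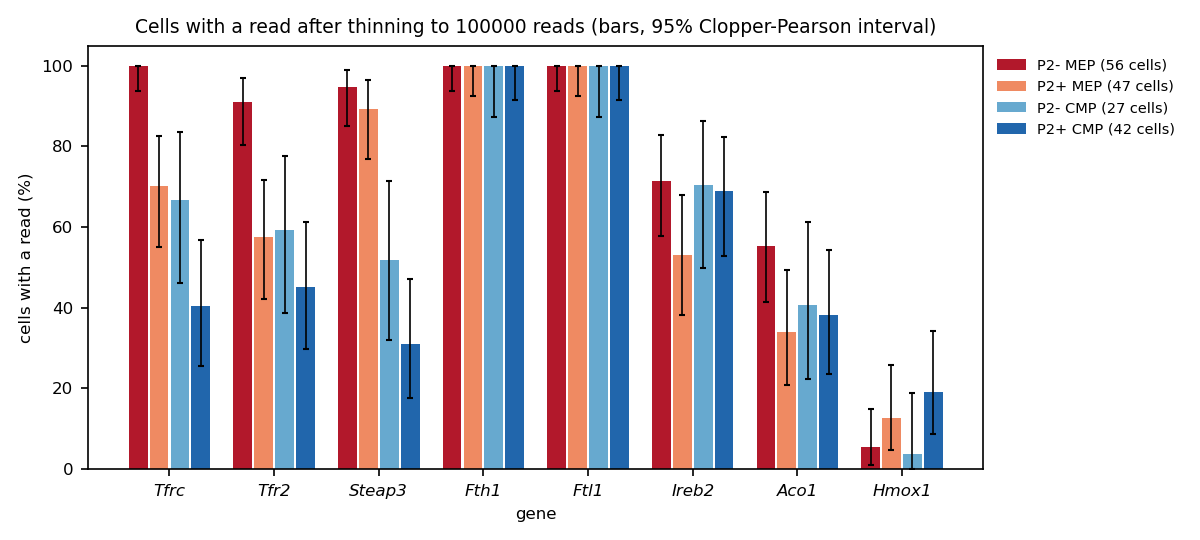
Percent of cells with a read of each gene (vertical axis) after thinning every cell to 100000 reads, in the 4 populations, with 95% Clopper-Pearson intervals. The shares of Tfrc and Steap3 step down from P2- MEPs to P2+ CMPs, both ferritin genes are at 100%, and Hmox1 stays under 20% in every population.

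The ferritin chains, which store iron, were read in every one of the 172 cells. Fth1 (chr19:9980598-9985098, plus strand) ranged from 599 to 2958 CPM per cell in the P2- MEPs (median 1637) and from 545 to 1784 in the P2+ MEPs (median 997). In CMPs it ranged from 571 to 1796 CPM in P2- cells (median 1070) and from 611 to 1554 CPM in P2+ cells (median 979). P2- MEPs were the high population: only 1 P2+ MEP and 3 P2- CMPs exceeded their median, although the ranges overlapped.

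Pooled, Fth1 stood at 1659 CPM (1644 to 1673) in the P2- MEPs, 1127 (1111 to 1142) in the P2- CMPs, 1035 (1024 to 1046) in the P2+ MEPs and 984 (974 to 995) in the P2+ CMPs. The log2 ratio of P2+ to P2- cells was -0.68 (-0.70 to -0.66) in MEPs and -0.19 (-0.22 to -0.17) in CMPs. The ratio of CMPs to MEPs was -0.56 in P2- cells and -0.07 in P2+ cells. These differences are below 2-fold, and the narrow intervals reflect the number of reads, not the number of embryos.

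Ftl1 (chr7:45457944-45459884, minus strand) had the smallest fold range of pooled levels of the 8. Its cells ranged from 122.6 to 507 CPM in the P2- MEPs (median 301.6), 94.7 to 419 in the P2+ MEPs (median 266.2), 114.3 to 381.4 in the P2- CMPs (median 260.8) and 159 to 398 in the P2+ CMPs (median 285.5). Pooled levels were 303.7, 278.998, 254.4 and 286.98 CPM in that order, and all 4 log2 ratios lay between -0.26 and 0.17. Those of P2+ to P2- cells were -0.12 (-0.16 to -0.08) in MEPs and 0.17 (0.12 to 0.22) in CMPs. The heavy to light chain ratio of reads per length was 5.69 in the P2- MEPs, 3.87 in the P2+ MEPs, 4.61 in the P2- CMPs and 3.57 in the P2+ CMPs, and the heavy chain was above the light chain in all 172 cells. Overlap with Gm10252 and Gm22133 covers 34.6% of the exon bases of Ftl1, where reads may be left unassigned, so its level and this ratio are uncertain.

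Ferritin genes also have near-identical copies in the genome that can share reads. Over the retained cells, Ftl2-ps had 2552 reads, Ftl1-ps1 893, Fth-ps2 151 and Ftl1-ps2 31. The pooled level of Ftl2-ps, the highest of these, was 17.3 to 26.6 CPM in the 4 populations, under the level of Ftl1 in each. Reads that fit both a gene and a copy may be left unassigned. These counts therefore do not bound the reads lost, and the ferritin levels and the chain ratio remain uncertain for this reason too.

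The 2 iron regulatory proteins were read in part of the cells at levels that overlapped widely. Ireb2 (chr9:54863789-54912530, plus strand), which encodes the form that is degraded when iron is high, ranged from 0 to 346.4 CPM in the P2- MEPs (median 33.1), 0 to 173 in the P2+ MEPs (median 17.7), 0 to 125.1 in the P2- CMPs (median 34.5) and 0 to 175 in the P2+ CMPs (median 38.5). Pooled levels were 52.9 CPM (50.3 to 55.5), 36.5 (34.4 to 38.7), 39.4 (36.6 to 42.4) and 41.0 (39.0 to 43.1), and the intervals of the last 3 overlapped between neighbours. The log2 ratio of P2+ to P2- cells was -0.54 (-0.65 to -0.43) in MEPs and 0.06 (-0.07 to 0.19) in CMPs. The P2- MEP value held 14.0% of its reads in 1 cell.

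Aco1 (chr4:40143081-40198338, plus strand) encodes the form that serves as cytosolic aconitase when it holds an iron-sulfur cluster. It ranged from 0 to 130.6 CPM in the P2- MEPs (median 20.8), 0 to 267.04 in the P2+ MEPs, 0 to 351.6 in the P2- CMPs and 0 to 303.1 in the P2+ CMPs, with a median of 0 in the last 3. Pooled levels were 33.4 CPM (31.3 to 35.5), 30.9 (29.0 to 32.9), 50.5 (47.3 to 53.8) and 28.6 (26.9 to 30.4). P2- CMPs were the high population by pooled reads, but a single cell held 26.3% of their Aco1 reads, and without the highest cell the log2 ratio of the P2- CMPs to P2- MEPs moved from 0.60 to 0.21. Without the highest cell the P2+ to P2- ratio in CMPs moved from -0.82 to -0.44.

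At equal depth, Ireb2 was read in 71.4% of the P2- MEPs, 53.2% of the P2+ MEPs, 70.4% of the P2- CMPs and 69.0% of the P2+ CMPs. Aco1 was read in 55.4%, 34.0%, 40.7% and 38.1% of the same populations. The Clopper-Pearson intervals of all 4 populations overlapped for each of these genes. Both genes were read in 21 of the 56 P2- MEPs, 9 of the 47 P2+ MEPs, 7 of the 27 P2- CMPs and 10 of the 42 P2+ CMPs.

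Hmox1 (chr8:75093621-75100589, plus strand), the inducible heme oxygenase, was rare. Reads were found in 4 P2- MEPs, 6 P2+ MEPs, 1 P2- CMP and 8 P2+ CMPs, and the highest cell of each population had 161, 95.5, 31.8 and 93.4 CPM. Pooled levels were 5.91, 9.18, 1.53 and 10.9 CPM, from 181, 290, 28 and 395 reads. Most cells in every population had none.

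The ratios of Hmox1 rest on these few cells. In CMPs the P2+ to P2- log2 ratio was 2.83 (2.28 to 3.44), with all 28 reads of the P2- CMPs in 1 cell. In MEPs it was 0.64 (0.36 to 0.91), and it moved to 2.60 without the P2- MEP that held 75.1% of that population's reads. Without the same cell the log2 ratio of the P2- CMPs to P2- MEPs moved from -1.95 to 0.01. At 100000 reads per cell the shares of cells with a read were 5.36% (1.12% to 14.9%), 12.8% (4.83% to 25.7%), 3.70% (0.094% to 19.0%) and 19.0% (8.60% to 34.1%), with overlapping intervals.

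Genes with the most similar pattern over cells were looked up for each member among 8027 genes read in at least 25% of the 172 cells, all thinned to 100000 reads. For Tfrc the highest Spearman rho were those of Klf1 (0.65), an erythroid transcription factor, Mt1 (0.64), Cpox (0.63), a heme synthesis enzyme, Ermap (0.63), an erythroid membrane protein, and Pklr (0.62), the red cell pyruvate kinase. For Steap3 they were those of Cited4 (0.61), Blvrb (0.55), Mt1 (0.55), Klf1 (0.54) and Alad (0.53), another heme synthesis enzyme. For Fth1 they were those of Atp7b (0.56), Pklr (0.53), Aplp2 (0.52), Blvrb (0.51) and Prdx2 (0.50).

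Within populations the likeness varied from gene to gene. The rho of Tfrc with Klf1 was 0.14 within P2- MEPs, 0.36 within P2+ MEPs, 0.37 within P2- CMPs and 0.08 within P2+ CMPs. That of Tfrc with Mt1 was -0.02, 0.48, 0.47 and -0.21 in the same order. For Steap3 the values within P2- CMPs were as high as those over all cells for Mt1 (0.69), Blvrb (0.61) and Klf1 (0.61), while within P2- MEPs they were -0.04, -0.06 and -0.13. For Fth1 with Atp7b they were 0.44, -0.01, -0.13 and 0.09 over the 4 populations, and with Blvrb 0.24, 0.30, -0.28 and 0.16. For Tfr2 the highest over all cells were Atp1b2 (0.39), Tnfaip2 (0.39), Klf1 (0.36), Slc41a3 (0.36) and Aqp1 (0.35). For Ftl1, Ireb2, Aco1 and Hmox1 no gene exceeded a rho of 0.33, and in sparse counts such values are no more than a description. The cells of a population share 1 pool of livers and 1 sort.

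Members also differed in how they varied with each other inside a population. Fth1 and Ftl1 had a rho of 0.42 in the P2- MEPs, 0.10 in the P2+ MEPs, 0.30 in the P2- CMPs and 0.19 in the P2+ CMPs. Tfrc and Steap3 had a rho of 0.37 over all cells but of 0.09, 0.0063, 0.32 and -0.22 within the populations in the same order.

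Markers of erythroid cells had the same order of summed levels over the 4 populations as Tfrc. Tfr2 did not keep that order, with a higher level in P2- CMPs than in P2+ MEPs, and the intervals of Steap3 in the MEP populations overlapped. The summed level of 11 erythroid markers (Klf1, Gata1, Epor and others, including globins) ranged over cells from 729 to 2919 CPM in the P2- MEPs, 60.8 to 3195.5 in the P2+ MEPs, 0 to 1653 in the P2- CMPs and 0 to 951 in the P2+ CMPs, with pooled sums of 1473, 825, 491 and 195 CPM. All 11 were read in MEPs, and 2 and 4 of them were at 0 in P2- and P2+ CMPs. Not every marker kept the order of the sum. Hbb-bt was higher in CMPs, with 9.51, 9.79, 232.2 and 120.6 CPM in the same order, a large part of the CMP sums. Hbb-bs stood at 65.6 CPM in the P2- MEPs and 110.8 CPM in the P2+ MEPs. The summed level of 6 megakaryocytic markers had the opposite order to the erythroid sum. Its pooled values were 20.3, 374.2, 515 and 579 CPM, with cells from 0 to 341.1, 0 to 1337, 0 to 1219 and 159.9 to 1130 CPM. Pf4, Gp9 and Gp1bb of this list were at 0 in the P2- MEPs. Granulocyte and monocyte markers, 6 genes, summed to 9.80, 38.6, 285.9 and 525 CPM, with cells from 0 to 146.4, 0 to 357.7, 0 to 1026 and 67.4 to 1520 CPM, and 3 and 1 of them were at 0 in P2- and P2+ MEPs. The part of these cell-type differences in the levels of the iron genes was not tested.

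Markers of macrophages and hepatocytes, which also hold much iron in the fetal liver, were looked up in the same way. Of 8 macrophage markers, Adgre1, C1qa, C1qb, C1qc and Cd5l had no read in any population, and the pooled sum of the list was at most 1.49 CPM. Of 7 hepatocyte markers the pooled sums were 11.99, 10.4, 24.9 and 13.6 CPM, with at most 326.003 CPM in 1 cell, and 2 to 4 of the 7 were at 0. Their part in the levels of the iron genes was not tested.

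The rest of the pathway was followed in 62 further genes of iron and heme handling. Of these, 44 had enough reads in the comparison of P2+ with P2- MEPs, where 5 were 2-fold or more lower (11.4%, beside 12.5% of all genes), 3 were as much higher (6.82%, beside 20.4%) and the median log2 ratio was -0.08. The 3 higher genes, Hamp, Epas1 and Slc46a1, each had reads in at most 3 P2+ MEPs, and of the 5 lower genes Fam132b had reads in at most 3 P2- MEPs. In CMPs 49 had enough reads, with 1 lower (2.04%, beside 14.7%), 9 higher (18.4%, beside 17.4%) and a median of 0.05. Of the 9 higher genes, Cybrd1, Steap1, Ltf, Heph, Fam132b and Epas1 had reads in at most 3 P2+ CMPs. Between CMPs and MEPs in P2- cells, 12 of 44 were lower (27.3%, beside 15.1%) and 4 higher (9.09%, beside 25.8%), with a median of -0.33, and Fam132b and Flvcr2 of the former and Ltf and Hfe of the latter had reads in at most 3 cells of the higher population. In P2+ cells, 7 of 50 were lower (14%, beside 16.5%) and 10 higher (20%, beside 23.2%), with a median of -0.19, and 7 of the 10 higher genes had reads in at most 3 P2+ CMPs and 2 of the 7 lower ones, Hamp and Flvcr2, in at most 3 P2+ MEPs. The medians of all genes are those given with the counts of the 8 members.

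**Figure D4:**
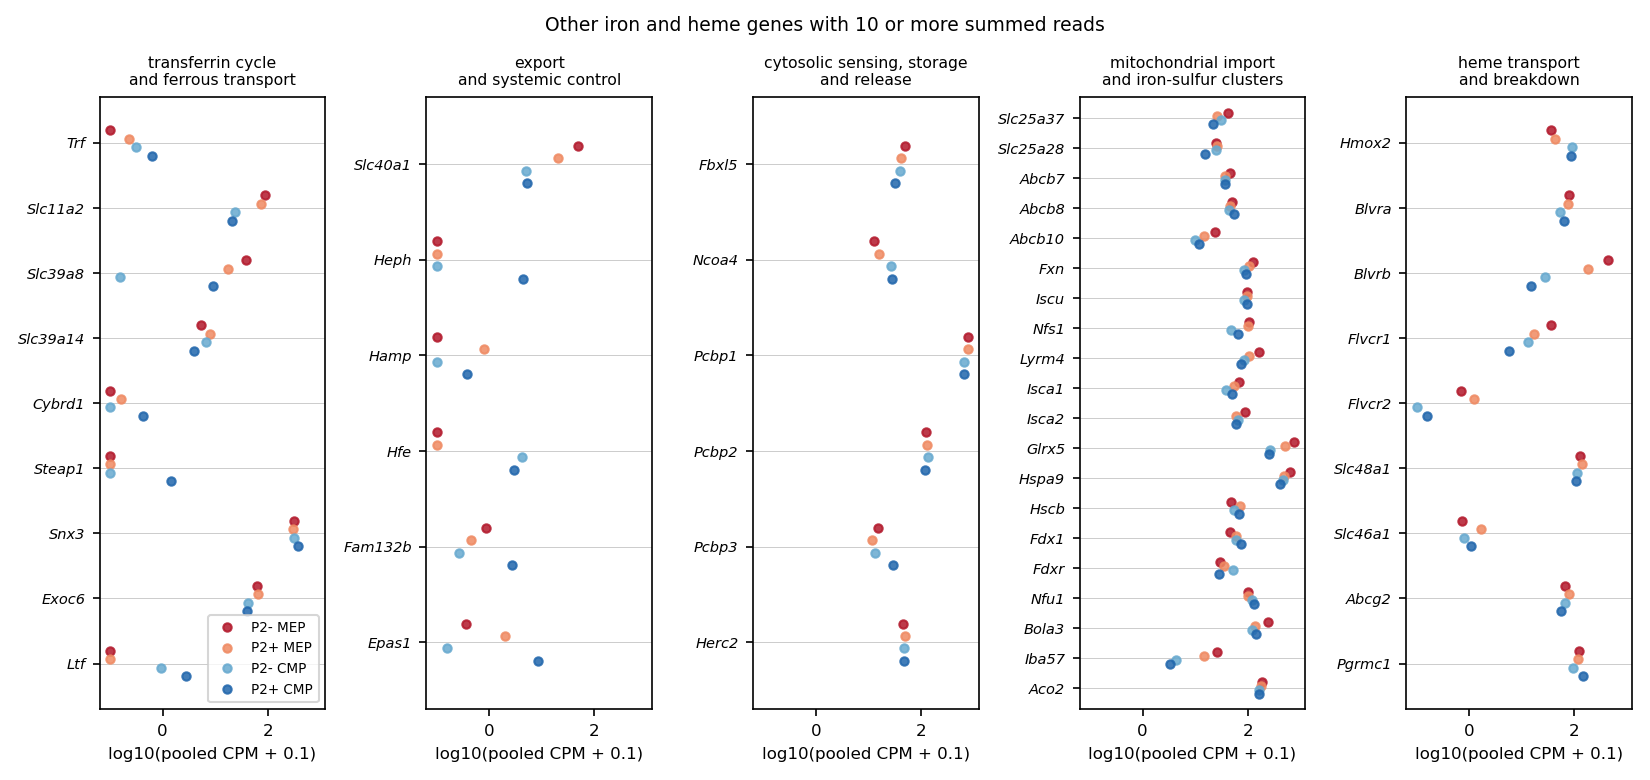
Pooled level as log10(CPM + 0.1) (horizontal axis) of the 50 further iron and heme genes with 10 or more summed reads, in 5 groups by role, with 1 point for each of the 4 populations. Blvrb, Slc40a1 and Iba57 have their MEP points to the right of their CMP points, and most genes of the mitochondrial group have their points close together.

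Among the genes that move ferrous iron with Tfrc and Steap3, Slc11a2 encodes DMT1, which carries reduced iron out of the endosome. It stood at 90.1 CPM in the P2- MEPs, 74.9 in the P2+ MEPs, 23.6 in the P2- CMPs and 20.8 in the P2+ CMPs, 3.81-fold lower in CMPs than in MEPs in P2- cells and 3.61-fold lower in P2+ cells. Slc39a8, a metal transporter of the ZIP family, stood at 37.9, 17.7, 0.0545 and 9.11 CPM, and its P2- CMP value was a single read. Snx3 and Exoc6, which serve the recycling of the receptor, stayed within 2-fold, with 296.4 to 375.3 CPM and 39.7 to 66.0 CPM.

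The exporter ferroportin, Slc40a1, also carries an iron-responsive element in its 5′ UTR, and it was higher in MEPs than in CMPs. Its pooled level was 48.8 CPM in the P2- MEPs, 20.2 in the P2+ MEPs, 4.96 in the P2- CMPs and 5.14 in the P2+ CMPs. Reads came from 34 of the 56 P2- MEPs, 10 of the 47 P2+ MEPs and 2 cells in each of the CMP populations. The P2+ to P2- log2 ratio was -1.27 (-1.41 to -1.14) in MEPs.

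The sequence of this element is shown because Slc40a1 was the one further gene of the pathway that held a match.
Slc40a1, 5′ UTR: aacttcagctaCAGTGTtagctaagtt

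It lies at chr1:45925466-45925492 (GRCm38) on the minus strand. Among the genes of export and systemic control, Hamp2, Hfe2, Tmprss6 and Bmp6 had no read, and Hamp had 22 reads in 1 P2+ MEP and 10 reads in 1 P2+ CMP. Hfe had reads in 2 cells of each CMP population and in no MEP. Epas1, a hypoxia-inducible factor, stood at 8.42 CPM in P2+ CMPs, from 3 cells, and Heph, a ferroxidase that acts with ferroportin, at 4.29 CPM, from 2 cells.

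In cytosolic sensing, storage and release, Fbxl5, Ncoa4, Pcbp1, Pcbp2, Pcbp3 and Herc2 were read. Fbxl5, whose product marks IRP2 for degradation, stood at 50.3 and 41.7 CPM in P2- and P2+ MEPs and at 38.8 and 31.7 CPM in P2- and P2+ CMPs. Ncoa4, the receptor that delivers ferritin for breakdown, was higher in CMPs, with 12.8 and 15.4 CPM in P2- and P2+ MEPs and 26.9 and 27.9 CPM in P2- and P2+ CMPs. The iron chaperone Pcbp1 stood at 654 to 791 CPM in the 4 populations.

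Of 21 genes of mitochondrial import and iron-sulfur clusters, 20 had enough reads. None passed 2-fold between P2+ and P2- cells in MEPs or CMPs, with medians of -0.29 and 0.04. Of all genes, 12.5% were lower and 20.4% higher in MEPs, and 14.7% and 17.4% in CMPs. These shares are smaller among genes at 20 CPM or more, as given in the last section. In P2- cells, Abcb10, Nfs1, Glrx5, Bola3 and Iba57 were 2-fold or more lower in CMPs than in MEPs, 5 of 20 (25%) beside 15.1% of all genes. Glrx5, a glutaredoxin of cluster transfer, had 757 CPM in the P2- MEPs and 262.7 CPM in the P2- CMPs, a log2 ratio of -1.53 (-1.57 to -1.48). In P2+ cells Iba57 alone of the 20 passed (5%, beside 16.5% of all genes), with a log2 ratio of -2.22 (-2.52 to -1.92). Glrx5 fell just short of 2-fold there, with a log2 ratio of -0.97 (-1.01 to -0.93).

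In heme transport and breakdown the members of the list went different ways. Blvrb, a biliverdin reductase that is abundant in erythroid cells, had 442 CPM in the P2- MEPs, 184 in the P2+ MEPs, 27.0 in the P2- CMPs and 14.99 in the P2+ CMPs. Flvcr1, a heme exporter, had 34.9, 16.7, 13.2 and 5.64 CPM, and its P2+ to P2- log2 ratio was -1.07 in MEPs and -1.23 in CMPs. Hmox2, the constitutive heme oxygenase, was higher in CMPs, with 35.4 and 42.1 CPM in MEPs and 90.8 and 86.1 CPM in CMPs, and so was read at higher levels than Hmox1 in every population, also per length of transcript. Cdip1 overlaps 40.2% of the exon bases of Hmox2, so its level and this comparison are uncertain.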

How the data were processed

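Single-cell cDNA was made by a modified Smart-Seq2 method with ERCC spike-ins and no molecular identifiers, and sequenced on 1 pool of libraries. The authors trimmed reads with Trimmomatic 0.36, aligned them to GRCm38 with STAR 2.4.2a and deposited raw counts per gene from HTSeq 0.6.1p1, without strand. Of the reads given to a gene, a spike-in, no feature or several features, 25.6% were ambiguous and 7.40% had no feature, and neither was used.

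The authors also deposited, for each cell, the percentage of reads left unmapped by the alignment. Retained cells had at least 250000 reads, at most 25% unmapped reads and at most 15% spike-in reads, limits taken from the study (172 of 175 cells). Groups came from the sample labels, and CMPs labelled low and high were read as P2- and P2+. Counts were summed over cells and divided by all reads on mouse genes. A ratio has an exact conditional binomial interval and needed 10 summed reads, and a population at 0 was set to 3 reads, so its ratio is a bound. Thinning used 1 seed. The calculations used Python 3.11.15, numpy 2.4.6, pandas 2.3.3 and scipy 1.17.1, and were tested on simulated data. DESeq2 1.42.0 gave size factors for 1 alternative. Symbols of Flvcr1 and Flvcr2 were matched by gene ID. The genes named are the members, the pathway and marker lists, the 5 genes most like each member, and ferritin copies with 10 or more reads. Members and lists were chosen with earlier results of these data known. All deposited sample columns were mapped, and those of the 3 cells not retained entered only the alternative with every deposited cell.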

Additional observations from a re-analysis of the deposited data

Results flagged for a closer look

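Results are given here where the same contrast had ratios on opposite sides of 0 in 2 settings, each with a counting interval clear of 0. With 1 pooled sample per population the difference between the settings was not tested. Ftl1 had a P2+ to P2- log2 ratio of -0.12 in MEPs and 0.17 in CMPs. Ireb2 had a CMP to MEP log2 ratio of -0.42 in P2- cells and 0.17 in P2+ cells, but by medians over cells the ratio in P2- cells was 0.059, and without the highest cell those in P2- and P2+ cells were -0.24 and 0.030. Hmox1 had a CMP to MEP log2 ratio of -1.95 in P2- cells, where 1 P2- MEP held 75.1% of the reads of its population, and of 0.24 in P2+ cells.

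Among the further iron genes the same held at 2-fold or more for Slc39a8 and for Fam132b, which encodes erythroferrone, a hormone of erythroid cells. Slc39a8 had a P2+ to P2- log2 ratio of -1.10 in MEPs and 7.38 in CMPs (4.90 to 12.7), the latter from reads in 6 of 42 P2+ CMPs and 1 read in P2- CMPs. Fam132b had a P2+ to P2- log2 ratio of -1.17 in MEPs and 3.97 in CMPs, and a CMP to MEP log2 ratio of -2.26 in P2- cells and 2.88 in P2+ cells. All of its reads came from 2 P2- MEPs, 1 P2+ MEP, 1 P2- CMP and 2 P2+ CMPs, and 96.8% of those in P2+ CMPs came from 1 cell.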

How the results depend on the processing

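The counts of members past 2-fold were recomputed with equal weight per cell, DESeq2 size factors, every deposited cell, a denominator without mitochondrial genes and Rn18s-rs5, and without the cell of conflicting label, and were the same as reported under each of these. Leaving out the highest cell of each gene gave 1 member higher in P2+ than P2- MEPs (Hmox1, in place of 0) and 1 lower in P2+ than P2- CMPs (Steap3, in place of 2), and 2 lower in P2- CMPs than P2- MEPs (in place of 3). It also turned Hmox1 between P2- CMPs and P2- MEPs to a log2 ratio of 0.014. With medians over cells, an alternative added after the data were seen, 3 members in place of 2 were lower, a median of 0 included, in P2+ than P2- MEPs, in P2+ than P2- CMPs and in P2+ CMPs than P2+ MEPs. In it, 0 members were higher in P2+ than P2- CMPs, and 1 was higher in P2+ CMPs than P2+ MEPs (Ireb2, log2 ratio 1.12). Over the alternatives the P2+ to P2- log2 ratio of Tfrc in MEPs lay between -2.21 and -1.32, and that of Steap3 in CMPs between -1.94 and -1.69 in the 6 alternatives that gave a ratio, since its median in P2+ CMPs was 0. The share of all genes past 2-fold depends on rare genes: among genes at 20 CPM or more in the higher population, also added later, it was 2.55% lower and 6.14% higher for P2+ over P2- MEPs, and 4.47% and 3.17% for CMPs. For CMPs over MEPs it was 6.16% lower and 14.6% higher in P2- cells and 6.45% and 9.95% in P2+ cells. At this depth 0 reads of a gene, set to the floor of 3 reads per population used for ratios, correspond to 0.0825 to 0.164 CPM.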
